A study of Caenorhabditis elegans with 6 samples.

Results

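Octopamine exposure of wild-type Caenorhabditis elegans was read from a pair of arrays, N2 with octopamine and N2 without it, out of 6 arrays in the series, and is described across 10251 of 17118 genes with a probe set. N2 is the laboratory wild type. The other arrays hold mutants of daf-16(mu86) and of both receptors, ser-3(ok2007);ser-6(tm2146), each also with and without octopamine, and both are listed on the N2 background. Animals of all groups grew for 3 days from synchronised eggs and then spent 2 days on plates that held octopamine at 20 mg/mL or none (0 mg/mL). The RNA came from the whole body of adults, which the extraction text calls 5 days old and the age label day 4 of adulthood. Each group is 1 array, so an N2 difference is a log2 ratio between 2 arrays, octopamine minus untreated, with no replicate, SD or p-value. Treated and untreated below mean N2 with and without octopamine. The words higher and lower below describe these arrays only.

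Octopamine is the invertebrate counterpart of noradrenaline. Worms make it from tyrosine through tyramine, with the decarboxylase TDC-1 and the hydroxylase TBH-1, and it acts through G-protein-coupled receptors such as SER-3, SER-6 and OCTR-1. It is known as a signal of food absence, and the title of the series ties it to oxidative stress resistance and to DAF-16, the FOXO transcription factor of the insulin pathway.

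Signals are the deposited intensity values of probe sets, groups of short probes that measure a transcript. They have a linear scale, and a brighter probe set of one gene cannot be set against that of another gene. Ratios were taken on the log2 scale after subtracting each array's median, so 1 stands for 2-fold. Of 17118 genes with a probe set of their own, 10251 reached a mean signal of about 15.5 over the 6 arrays and were analysed. The array medians were close, at a signal of 25.3 in octopamine-treated N2 and 23.8 in untreated N2, a log2 difference of 0.09. The N2 ratios of 18 hybridisation control probe sets, which measure bacterial and phage transcripts added to the sample, ranged from -0.25 to 0.15. The 3'/5' signal ratio of ubiquitin, a sign of RNA integrity, was 5.77 with octopamine and 5.32 without it. The 3' and 5' ends differed less for other worm controls. Actin read 3904 (3') and 2179 (5') with octopamine, and 4147 and 2041 without it. Gapdh read 792 and 757 with octopamine, and 626 and 508 without it. Catalase read 162 and 94.4 with octopamine, and 117 and 69.3 without it.

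Most transcripts differed little between the N2 arrays, and a small number differed strongly. The median ratio of all genes was -0.06, and the quartiles were -0.24 and 0.14. Of 10251 genes, 9234 (90.1%) lay within 1.5-fold. At least 2-fold higher with octopamine were 123 genes (1.2% of those analysed), and at least 2-fold lower were 149 (1.45%). The lower tail reached further: 55 genes were at least 3-fold lower against 25 that were at least 3-fold higher, and 26 against 9 at 4-fold. The balance of the whole table depended on the scaling. Ratios above 0 were held by 41.6% of genes. That share was 54.5% when the deposited values were not rescaled and 50.2% with quantile normalization. Of the genes past 2-fold, 45.2% were higher, against 57.5% and 50.9% under those scalings. Under all 3 scalings 120 genes were past 2-fold upward and 121 downward.

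**Figure D1:**
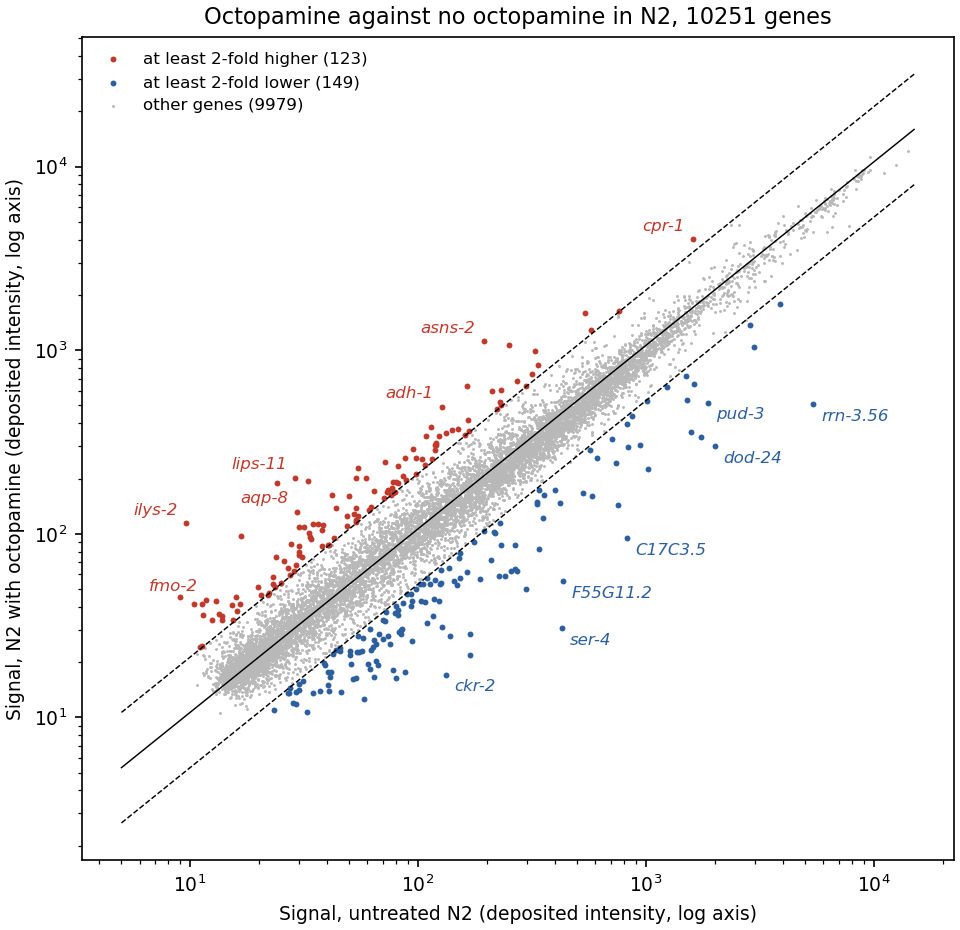
Signal of each of 10251 genes in octopamine-treated N2 (vertical, log axis) against untreated N2 (horizontal, log axis), 1 array each. The solid line marks equal signals after subtraction of the array medians and the dashed lines 2-fold; 123 genes lie above the upper line, 149 below the lower one, and none of the genes above a mean signal of 3000 is among them.

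How far a ratio can be read depends on the brightness of the gene. In genes with a mean N2 signal of 30 to 100 the quartiles of the ratio were -0.25 and 0.24, whereas at signals above 3000 they were -0.13 and 0.03, and 0 of 164 genes there were past 2-fold. Of the genes past 2-fold, 15 of the 123 higher and 16 of the 149 lower had an N2 signal under the filter level. The share past 2-fold was 4.73% between 30 and 100 and 1.44% between 300 and 1000, against 2.65% of all genes. A further check came from 2163 genes with at least 2 probe sets past the filter. Their brightest pair of probe sets differed by a median of 0.14 in log2 ratio, and by under 0.5 in 94.7% of genes. Of 25 genes past 2-fold upward with such a pair, the second probe set was above 0 in 23 and also past 2-fold in 14. Of 15 past 2-fold downward it was below 0 in 14 and past 2-fold in 8. These differences measure the scatter between probe sets on the same arrays, not between animals.

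**Figure D2:**
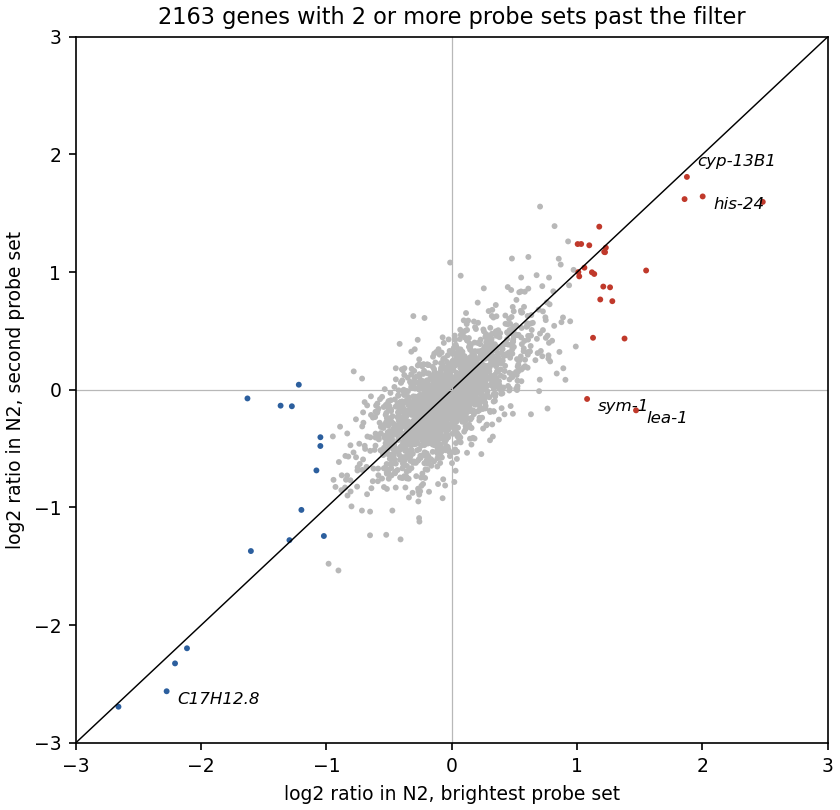
N2 log2 ratio (octopamine minus untreated) of the second-brightest probe set against the brightest for 2163 genes. Red points are genes at least 2-fold higher on the brightest probe set and blue ones at least 2-fold lower; lea-1 and sym-1 are the 2 red points below 0 on the second probe set.

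The genes with the highest ratios included digestive and antibacterial enzymes, an amino acid synthetase, a water channel and linker histones. ilys-2, an invertebrate-type lysozyme that cleaves bacterial cell walls, had a signal of 115 with octopamine and 9.59 without it, a log2 ratio of 3.49. Its relative ilys-3 read 190 with octopamine and 24 without it, a ratio of 2.89. The lipase-related gene lips-11 read 202 with octopamine against 29 without it, a ratio of 2.71. The untreated signal of ilys-2 lay under the filter level, so its size is less certain than that of ilys-3. asns-2, an asparagine synthetase, read 1121 with octopamine and 194 in untreated animals, a ratio of 2.44, although its probe set carries a suffix that marks probes shared by several transcripts. aqp-8, an aquaporin, had 132 with octopamine and 29.4 without it, a ratio of 2.08. adh-1, an alcohol dehydrogenase, read 493 treated and 127 untreated, a ratio of 1.87.

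Further genes among the 25 highest were the cytochrome P450 cyp-13B1 at 1.88, the flavin monooxygenase fmo-2 at 1.81, the cathepsin B-like protease cpr-5 at 1.68, the lysozyme lys-10 at 1.89 and the acyltransferase-related gene oac-14 at 1.63. The nematode-specific peptide gene nspe-7 had a ratio of 2.24 and nspe-1 of 1.60. Signals of cyp-13B1 were 164 treated and 41.9 untreated, with 1.81 on its other probe set. lys-10, at signals of 41.2 treated and 10.4 untreated, and fmo-2, at 43.7 treated and 11.7 untreated, were dim without octopamine. Uncharacterised genes in this set were Y110A2AL.4 at 2.48 with 1.60 on its other probe set, T02B11.4 at 2.45, C50F7.5 at 1.81, K11H12.6 at 1.70 and W04A8.4 at 1.69. Also there were kreg-1 at 1.97, cyts-1 at 1.78, fbxb-54 at 1.77, the serpentine-receptor-related gene srr-4 at 1.65 and T28A11.16 at 1.63.

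**Figure D3:**
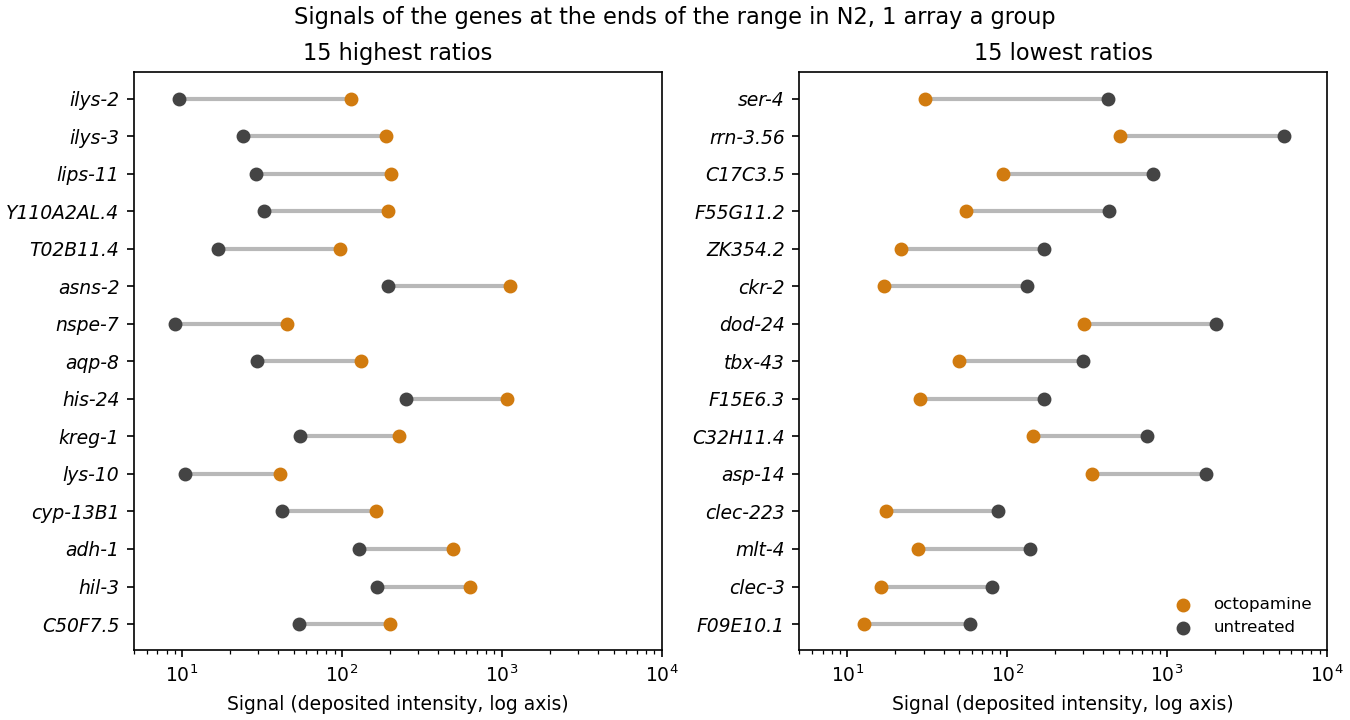
Deposited signals (log axis) of the 15 genes with the highest and the 15 with the lowest N2 ratios, octopamine in orange and untreated in dark grey, 1 array each. Upward, the untreated signals of ilys-2 and nspe-7 are 9.59 and 9.05, while downward rrn-3.56 reads 509 with octopamine and 5410 without it.

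At the low end stood probe sets for receptors, CUB-like defence genes, lectins and proteases. The probe set assigned to the serotonin receptor ser-4 read 30.6 with octopamine and 426 without it, the lowest ratio of all at -3.89. It is a shared probe set, and the other ser-4 probe set read 9.81 treated and 9.97 untreated, a ratio of -0.11, below the filter level on both arrays. The large ratio therefore cannot be assigned to ser-4 alone. The ribosomal RNA probe set rrn-3.56, also shared, read 509 with octopamine and 5410 without it, a ratio of -3.50. The uncharacterised gene C17C3.5, on a probe set of its own, had 94.6 treated and 822 untreated, a ratio of -3.21. ckr-2, a neuropeptide receptor of the cholecystokinin type, read 17.1 with octopamine and 132 without it, a ratio of -3.04. tbx-43, a T-box transcription factor, had 49.8 treated and 298 untreated, a ratio of -2.67. For the molting gene mlt-4 the ratio of -2.40 came from a shared probe set at 27.7 treated and 138 untreated, whereas its other probe set was dim at 8.18 on both arrays.

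dod-24, a CUB-like gene named for its place downstream of DAF-16, read 300.2 with octopamine and 2011 without it, a ratio of -2.83. The aspartic protease asp-14 read 338 treated and 1748 untreated, a ratio of -2.46. The genes pud-4 and pud-3, named for proteins that are more abundant in daf-2 mutants, were both lower: pud-4 read 359 treated and 1576 untreated, a ratio of -2.22, and pud-3 518 treated and 1869 untreated, a ratio of -1.94. Also among the 25 lowest were the lectins clec-223 at -2.41 and clec-3 at -2.38, the lysosomal carboxypeptidase-like gene pcp-2 at -2.2 and the solute-carrier gene slcr-46.2 at -2.11 with -2.2 on its other probe set. Genes there known only by a sequence name were F55G11.2 at -3.06, ZK354.2 at -3.04, F15E6.3 at -2.66, C32H11.4 at -2.47, F09E10.1 at -2.29, C17H12.8 at -2.28, K08D8.5 at -2.21, F15E6.4 at -2.15, F54F7.2 at -2.13, C17H12.6 at -2.12, R03H10.6 at -2.11 and F59C6.16 at -2.05. Of these, F55G11.2, C32H11.4, C17H12.8 and K08D8.5 are counted again in the CUB-like and infection-response list below. Among genes past 2-fold whose higher signal reached 1000, 14 were lower and 6 were higher. The 6 higher ones were asns-2, his-24, lea-1, cpr-1, Y53H1B.2 and the glyoxylate-cycle enzyme icl-1, which read 1642 with octopamine and 763 without it.

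Genes past 2-fold lay beside each other along the chromosomes more often than genes at large. In the gene order of assembly WBcel235, 32 of 144 placed lower genes (22.2%) had a neighbour in the analysed set that was also past 2-fold downward, while 2.73% of all placed genes had such a neighbour. For higher genes it was 16 of 123 (13%), against 2.41% of all placed genes. Neighbouring paralogues can share probes, so such neighbours are not independent readings. The groups below follow a looser rule. They join genes past 2-fold the same way that lie up to 5 places apart, so other analysed genes can lie between them. The longest group held 9 lower genes: K08D8.4, K08D8.5, C32H11.4, dod-24, F55G11.8, dod-22, F55G11.2, mbug-1 and dod-17, with ratios from -3.06 to -1.35. In a group of 4 higher genes, with ratios of 1.01 to 2.44, stood kreg-1, F53A9.1, F53A9.8 and asns-2. A group of 5 higher genes held F-box genes, namely fbxb-43, fbxb-42, fbxb-54 and fbxa-163 with K05F6.12 among them. The genes ckr-2, dpy-1, Y39A3A.3, Y48G9A.9 and Y48G9A.7 formed a group of 5 lower genes, and 3 more lower groups held clec-222 with clec-223, C17H12.8 with C17H12.6, and F15E6.4 with F15E6.3 and dct-7. A group of 3 higher genes held nspe-1, Y38E10A.14 and nspe-7.

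Genes of the octopamine system itself differed little. Of 9 genes of octopamine and tyramine synthesis and reception with a probe set, 4 passed the filter, and 0 were past 2-fold. The hydroxylase gene tbh-1 read 1341 with octopamine and 1378 without it, a ratio of -0.13. The decarboxylase gene tdc-1 read 776 treated and 754 untreated, a ratio of -0.05. The receptor gene ser-3 read 25.7 with octopamine and 22.3 without it, a ratio of 0.12, and octr-1 29 with octopamine and 30.8 without it, a ratio of -0.17. The other 5, among them the tyramine receptor genes tyra-2 and tyra-3 and the vesicular monoamine transporter cat-1, were below the filter, and ser-6 had no probe set assigned. In the serotonin and dopamine list 12 of 17 genes passed, with a median of -0.07 that turned above 0 with the values as deposited. Besides the ser-4 probe set described above, the lowest was cat-4, which makes the cofactor of monoamine synthesis, at 233 with octopamine and 358 without it, a ratio of -0.71. The dopamine receptor dop-4 had -0.46 and the decarboxylase bas-1 -0.44, and the monoamine oxidase genes were the highest, amx-2 at 0.47 and amx-1 at 0.35. The serotonin synthesis gene tph-1 had -0.03 and the dopamine synthesis gene cat-2 0.00. G protein signalling genes ran from rgs-1 at -0.56 to calmodulin, cmd-1, at 0.40, with 0 of 25 past 2-fold, where 2.65% of all genes were.

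Insulin-like peptides and neuropeptides leaned upward in N2. Of 24 insulin-like peptide genes with a probe set 13 were analysed: 11 had a ratio above 0, where 41.6% of all genes did, and their median was 0.21, beside 0.05 in daf-16 and 0.24 in ser-3;ser-6. ins-2 had the highest ratio at 1.24. Next came ins-7 with 139 treated and 62.2 untreated, a ratio of 1.07, and ins-35 60.5 treated and 29.9 untreated, a ratio of 0.93. ins-7 is an agonist of the insulin receptor DAF-2 that DAF-16 represses. The lowest were ins-34 at -0.49 and ins-5 at -0.34. Among 65 of 87 genes for FMRFamide-like and other neuropeptides, 44 were above 0, with a median of 0.14. Past 2-fold upward were 2 of them, where 1.2% of all genes were: nlp-35 at 1.36, dim at 34.1 treated and 12.5 untreated, and nlp-80 at 1.03. The FMRFamide-like genes flp-3, at 0.71, flp-16, at 0.68, and flp-13, at 0.66, came next. In the same list nlp-33 at -0.89, nlp-27 at -0.72 and nlp-51 at -0.72 were lowest. The prohormone convertase egl-3, which cuts neuropeptide precursors, read 131 treated and 78.9 untreated, a ratio of 0.64. Of 33 neuron markers 25 were analysed, with 12 above 0, a median of -0.02, and summed signals of 2574 with octopamine and 2276 without it. The median of the neuropeptide list was 0.01 in daf-16 and -0.01 in ser-3;ser-6. Whether the strains differ in this was not tested, with 1 array a group.

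Transcripts of the insulin-to-FOXO pathway stayed within 2-fold, and the DAF-16 target lists had medians of opposite sign. Of 22 pathway genes 21 were analysed. Past 2-fold were 0 of them, near the background for a list of this size, as 2.65% of all genes were past it. daf-16 read 269 with octopamine and 274 without it, a ratio of -0.12, and its other 3 probe sets ranged from -0.23 to 0.01. The AMP-activated kinase subunit aak-2 was the highest at 0.77, with 0.29 on its other probe set, and the kinase gene pdk-1 followed at 0.61, while daf-15, a partner of the TOR kinase, was lowest at -0.43. Of 21 analysed class I targets, which DAF-16 activates, 16 were above 0 with a median of 0.21, beside 0.06 in daf-16 and 0.19 in ser-3;ser-6. Of 13 class II genes, which are lower when DAF-16 is active, 2 were above 0 with a median of -0.47, beside -0.32 in daf-16 and -0.26 in ser-3;ser-6. The class II genes above 0 were ins-7 and the nuclease nuc-1 at 0.51, and those past 2-fold downward were dod-24, dod-17 at -1.84 and dod-22 at -1.47. The highest class I gene was lea-1 at 1.47, but its 6 probe sets disagreed, from -0.17 to 1.47. The unshared one with the highest mean log2 signal over the 6 arrays had -0.17, at 504 treated and 535 untreated, and another unshared one 1.37, at 849 treated and 309 untreated. These lists were chosen with earlier results of these data known, so they show no independent direction.

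The enzymes that remove reactive oxygen differed little between these arrays. Of 6 superoxide dismutase and catalase genes with a probe set 5 were analysed, and the ratios spanned -0.16 to 0.27. The mitochondrial dismutase sod-3, a common DAF-16 reporter, read 17.9 with octopamine and 14 without it, a ratio of 0.27 at a signal near the filter. Its paralogue sod-2 read 813 treated and 705 untreated, a ratio of 0.12, the cytosolic sod-1 1368 treated and 1441 untreated, a ratio of -0.16, and the catalase ctl-2 410 treated and 330 untreated, a ratio of 0.22. The extracellular sod-4 had 0.03. Control probe sets named for worm catalase, which were left out of the gene comparison, had 0.38, 0.36 and 0.53. In the thioredoxin, peroxiredoxin and glutathione list, 22 of 27 genes were analysed with a median of -0.19 and 7 above 0. Past 2-fold were 0 of the genes in this list and in the dismutase and catalase list. As 2.65% of all genes were past 2-fold, a count of 0 in lists of this size is near the background. The thioredoxin reductase trxr-1 was highest at 0.40, and msra-1, which repairs oxidised methionine, lowest at -0.68 with 187 treated and 281 untreated. The glutamate-cysteine ligase gcs-1, a target of the stress factor SKN-1, had -0.52. The SKN-1 reporter gst-4 read 883 with octopamine and 799 without it, a ratio of 0.06. Its relative gst-5 was the highest of 31 glutathione transferases at 1.01, from 346 treated and 161 untreated. The sulphide quinone oxidoreductase sqrd-1 had -0.95. The metallothionein mtl-1 had 0.05 and mtl-2 -0.43, and the ferritin ftn-1, which stores iron, 0.79.

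Detoxification families held a few far members around medians near 0. Of all genes analysed 2.65% were past 2-fold either way, 1.2% upward and 1.45% downward. Among 35 of 73 cytochrome P450 genes, cyp-13B1 and cyp-29A4, at -1.17, were past 2-fold and the next highest was cyp-14A5 at 0.91. Among 44 of 64 UDP-glucuronosyltransferases, which attach sugars to small molecules, 1 was past 2-fold upward, ugt-21 at 1.12, and 3 downward, ugt-63 at -1.46, ugt-6 at -1.33 and ugt-43 at -1.3. The flavin monooxygenases spanned fmo-2 at 1.81, fmo-5 at 0.70, fmo-1 at -0.20, fmo-3 at -0.42 and fmo-4 at -0.52. The median of the P450 list, -0.02, and that of the glucuronosyltransferases, -0.08, turned above 0 with the values as deposited.

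Innate defence genes were found among the highest and the lowest ratios. Of all genes analysed 1.2% were past 2-fold upward and 1.45% downward. Of 16 lysozyme genes 12 were analysed. 4 were past 2-fold upward, ilys-2, ilys-3, lys-10 and lys-3 at 1.57, and lys-6, at -1.32, was past it downward. ilys-5 read 4738 with octopamine and 7806 without it, a ratio of -0.81, and lys-2 1728 treated and 2495 untreated, a ratio of -0.62, while lys-7, at 4261 treated and 3417 untreated, had 0.23. Of 32 CUB-like and infection-response genes 25 were analysed, with a median of -0.43, 10 past 2-fold downward and 2 upward. The lower ones were F55G11.2, dod-24, C32H11.4, C17H12.8, K08D8.5, dod-17, sysm-1 at -1.71, irg-4 at -1.58, dod-22 and F55G11.8 at -1.35. The 2 higher ones, F53A9.1 at 255 treated and 116 untreated and F53A9.8 at 638 treated and 298 untreated, belong to the chromosomal group with kreg-1. Other analysed genes of that name were F53A9.6 at 0.70, F53A9.9 at 0.10 and F53A9.7 at 0.06. The infection-response gene irg-1 had 0.77 at signals of 27.3 treated and 15 untreated.

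C-type lectins, which bind sugars, were mostly unmeasured, with 69 of 220 genes past the filter. Of the 69, 22 had a ratio above 0, 4 were past 2-fold upward and 10 downward. The shares among all genes were 41.6%, 1.2% and 1.45%. clec-266 read 989 with octopamine and 326 without it, a ratio of 1.51, and clec-5 260 treated and 87.6 untreated, a ratio of 1.48. clec-222, in the chromosomal group with clec-223, read 87.1 treated and 267 untreated, a ratio of -1.70. The saposin-like genes, whose products act on membranes, had a median of -0.23 over 12 of 18 genes, from spp-12 at 1.27 to spp-24 at -0.93. Epidermal antimicrobial peptides, with 22 of 36 genes analysed, stayed within 2-fold from cnc-6 at 0.73 to nlp-33 at -0.89, with 15 above 0.

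Proteins that mark others for degradation differed by family. F-box proteins select substrates for ubiquitin ligases of the SCF type, in which SKR proteins are the adaptors. Of 47 analysed fbxb genes, from 95 with a probe set, 44 had a ratio above 0 and 7 were past 2-fold upward, with a median of 0.41 beside -0.06 for all genes. The shares among all genes were 41.6% above 0 and 1.2% past 2-fold upward. fbxb-54 read 108 with octopamine and 29.9 without it, fbxb-42 86.2 treated and 29.9 untreated, a ratio of 1.44, fbxb-38 36.4 treated and 13.3 untreated, a ratio of 1.36, and fbxb-19 51.5 treated and 19.8 untreated, a ratio of 1.29. Of 25 fbxc genes 21 were above 0. fbxc-51 had 1.38, with 0.44 on its other probe set, and fbxc-25 1.04, while fbxc-42, in contrast, had -1.48. The 62 analysed fbxa genes had a median of 0.02, 34 above 0 and 1 past 2-fold, fbxa-163, which lies in the chromosomal group with fbxb genes. Of 17 skr genes 13 were above 0, with a median of 0.51. skr-8 read 1104 with octopamine and 543 without it, a ratio of 0.94 with 0.89 on its other probe set, and skr-21 166 treated and 77.9 untreated, a ratio of 1.00. The median of the skr genes was 0.25 in daf-16 and -0.05 in ser-3;ser-6. Of 33 proteasome subunits 9 were above 0, with a median of -0.15 and a range from pbs-4 at -0.35 to pas-7 at 0.14.

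**Figure D4:**
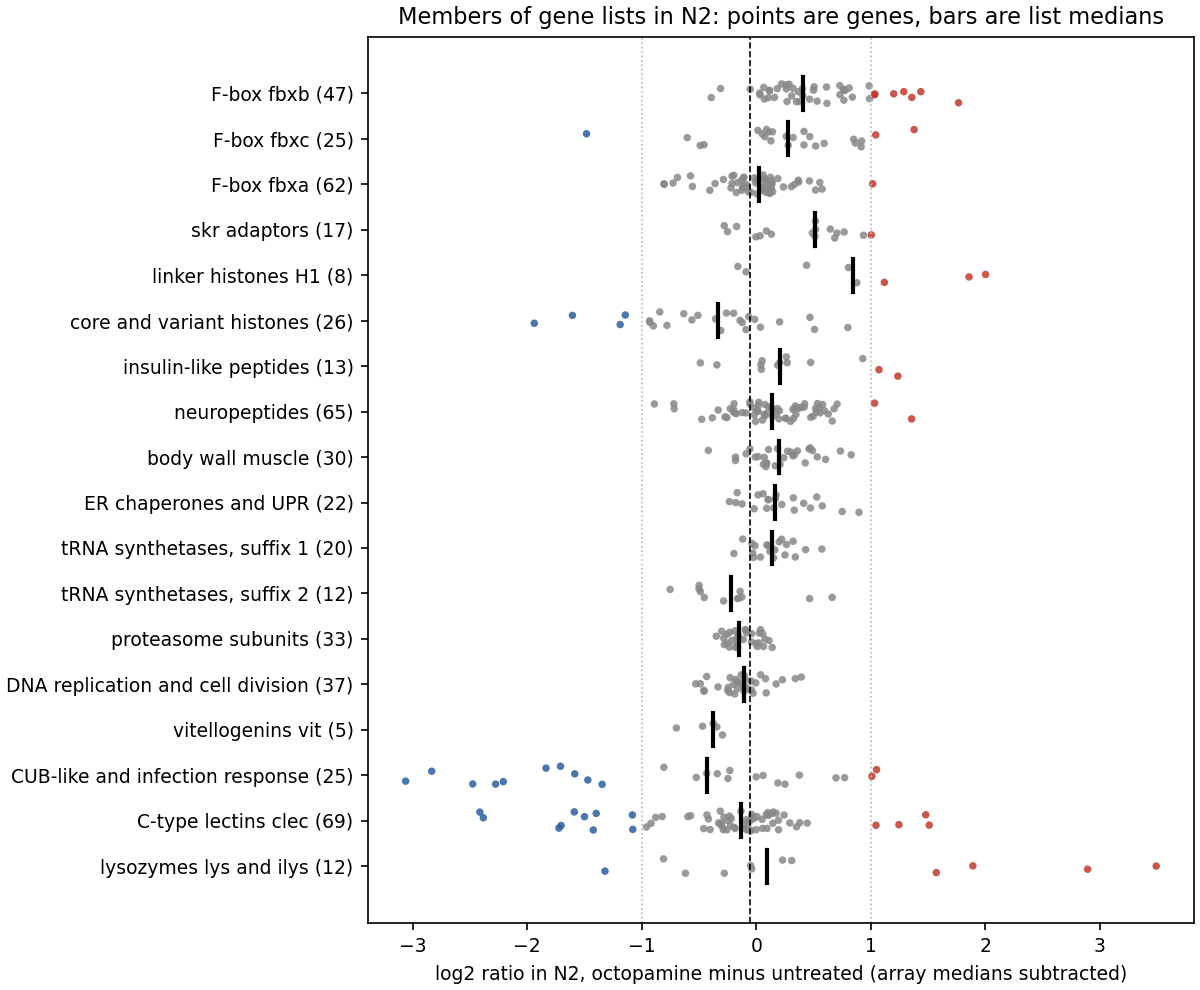
N2 log2 ratio (octopamine minus untreated) of each analysed gene in 18 groups, with numbers of genes in brackets. Black bars are group medians, the dashed line is the median of all genes at -0.06, dotted lines mark 2-fold, and points past it are red (higher) or blue (lower); fbxb genes have a median of 0.41, linker histones of 0.84 and CUB-like genes of -0.43.

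Histone genes divided by class, a split made after the values were seen. Linker histones, which bind DNA between nucleosomes, had a median of 0.84 over 8 genes, 6 of them above 0. his-24 read 1070.5 with octopamine and 251 without it, a ratio of 2.00 with 1.64 on its other probe set. hil-3 read 635 treated and 165 untreated, a ratio of 1.86 with 1.62 on the other, and hil-7 169 treated and 73 untreated, a ratio of 1.12. hil-2 had 0.88 and hil-5, at 1919 treated and 1033 untreated, 0.80, while hil-1 had -0.16 and hil-4 -0.09. Of 26 core and variant histone genes, which build the nucleosome, 5 were above 0 and 4 past 2-fold downward, with a median of -0.33. Among all genes 41.6% were above 0 and 1.45% past 2-fold downward. his-62 read 161 with octopamine and 581 without it, a ratio of -1.94, and his-64 147 treated and 420 untreated, a ratio of -1.60. his-61 had -1.19 and his-68 -1.14, whereas the replacement H3 gene his-71 had 0.80. Core histone genes are near-identical copies, so shared probes can count one gene as another. The linker median was 0.93 without rescaling and 0.95 with quantile normalization, and the core median -0.24 and -0.22 under the same settings. The median of all 34 analysed histone genes, -0.15, turned above 0 without shared probe sets. DNA replication and cell division genes had 7 of 37 above 0, with a median of -0.11.

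Genes of amino acid supply included some of the largest metabolic ratios. Besides asns-2, the tyrosine aminotransferase tatn-1 read 368 with octopamine and 142 without it, a ratio of 1.29, the cystathionine gamma-lyase cth-1 116 treated and 53.5 untreated, a ratio of 1.03, and the glutamine synthetase gln-1 169 treated and 78.9 untreated, a ratio of 1.01 with 1.00 on its other probe set. These were 4 of 41 analysed genes of amino acid synthesis and transport, while 1.2% of all genes were past 2-fold upward. The peptide transporter pept-2 at -0.73, the glycine decarboxylase gldc-1 at -0.73 and haao-1, of kynurenine breakdown, at -0.61 were the lowest. The median of the list was -0.04 and changed sign with the scaling.

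In the machinery of translation the members split by compartment, again a division made afterwards. Of 20 aminoacyl-tRNA synthetase genes with the suffix 1, mostly cytosolic enzymes, 14 were above 0 with a median of 0.14, led by hars-1 at 790 treated and 499 untreated, a ratio of 0.57. Of 12 with the suffix 2, which are mostly mitochondrial, 2 were above 0 with a median of -0.22, and lars-2 was lowest at -0.75. The 2 above 0 were cars-2 at 0.66 and aars-2 at 0.47. Subunits of the initiation factor eIF3 were above 0 in 9 of 10 genes, with eif-3.I at 0.97 and 1.02 on its other probe set and eif-3.E at 0.85 and 1.11. Their N2 median was 0.19, beside 0.06 in daf-16 and 0.00 in ser-3;ser-6. Mitochondrial ribosomal proteins had 13 of 54 above 0 with a median of -0.10, below 0 except after quantile normalization. Cytosolic ribosomal proteins lay in a narrow range, with quartiles of -0.12 and -0.01 and a median of -0.07. That median turned above 0 under both other scalings. Past 2-fold were 0 of 69, where 2.65% of all genes were.

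Stress genes of the secretory pathway and of water balance leaned upward. Of 22 endoplasmic reticulum chaperone and unfolded-protein-response genes 17 were above 0 and 0 past 2-fold, with a median of 0.16. The BiP-type chaperone hsp-3 read 819 with octopamine and 414 without it, a ratio of 0.90. The disulphide isomerase pdi-2 had 0.75, pdi-6 0.58, and calreticulin, crt-1, 0.53 from 3823 treated and 2493 untreated. Cytosolic heat shock genes had a narrower range, from hsp-12.3 at 0.19 to dnj-13 at -0.40. Past 2-fold were 0 of 18, as in the endoplasmic reticulum list, where 2.65% of all genes were. Of 16 osmotic response genes 10 were above 0. gpdh-1, a glycerol-3-phosphate dehydrogenase that serves glycerol build-up under high salt, read 342 treated and 109 untreated, a ratio of 1.56, and gpdh-2 1074 treated and 665 untreated, a ratio of 0.60. Of 7 analysed aquaporins aqp-8 and aqp-2, at 1.22 with 1.17 on its other probe set, were past 2-fold upward and aqp-4, at -1.14, downward. The shares among all genes were 1.2% upward and 1.45% downward.

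Fat metabolism showed far members in both directions. Among all genes 1.2% were past 2-fold upward and 1.45% downward. Of 14 analysed lipases lips-11 was past 2-fold upward, and lips-5 at -1.37, the lysosomal lipl-2 at -1.3 and lips-14 at -1.13 downward. Among genes known to be induced by fasting, 11 of 18 were above 0 with a median of 0.06, and the highest after fmo-2 were icl-1 at 1.02, the acyl-CoA synthetase acs-2 at 0.99 with 0.37 on its other probe set, cpt-4, a carnitine palmitoyltransferase, at 0.96 and fil-1, a lipase, at 0.71. The desaturases, which place double bonds in fatty acids, ran from fat-3 at 0.57 to fat-7, from 642 treated and 1046 untreated, at -0.79, and the elongase elo-2 had 0.77. The peroxisomal oxidase acox-1.2 had -1.18 and acdh-1, an enzyme of propionate breakdown, 1256 with octopamine and 2224 without it, a ratio of -0.91. Enzymes of the citric acid cycle included aco-1 at 0.76, aco-2 at 0.66 and idh-2 at 0.60. All 5 vitellogenins, the yolk proteins made in the intestine, were below 0, from vit-5 at -0.30 to vit-1, at 1593 treated and 2429 untreated, at -0.70.

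Proteases are given by class, a split made after the values were seen, as the median of the joint list, -0.04, changed sign with the setting. The cathepsin B-like cpr-1 read 4040 with octopamine and 1608 without it, a ratio of 1.24, and cpr-4 4823 treated and 2349 untreated, a ratio of 0.95. Of 7 analysed cpr genes 5 were above 0, the lowest being cpr-6 at -0.55. Of 10 aspartic proteases 6 were below 0, where 58.4% of all genes were, with asp-14, asp-8 at -1.02, asp-12 at -0.94 and asp-13 at -0.93 the lowest, and asp-17 highest at 0.24. The hatching protease hch-1 had 1.55 and the astacin nas-20 -2.04. In the cuticle, the collagen dpy-14, at 138 treated and 43.7 untreated, had a ratio of 1.57, dpy-17, at 355 treated and 133 untreated, of 1.33, and noah-1, a component of the apical matrix, 1.22 with 1.17 on its other probe set. The 94 analysed col collagens ran from col-142 at 0.88 to col-158 at -0.82, with 0 past 2-fold, where 2.65% of all genes were. Of 35 glycosylation genes 7 were above 0, and all 8 sqv genes, which build chondroitin, were below 0, from sqv-3 at -0.07 to sqv-1 at -0.46.

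Of 113 analysed nuclear hormone receptors 2 were past 2-fold, where 2.65% of all genes were. Among them nhr-3, at 172 treated and 73.7 untreated with 0.98 on its other probe set, had a ratio of 1.14 and nhr-181 of -1.49. Of 19 bZIP genes 1 was past 2-fold, zip-8, which had 1.18 and 1.39 on its other probe set, with ces-2 and atf-2 both at 0.81. Besides tbx-43, the T-box genes ran from tbx-36 at -0.93 to tbx-11 at 0.73. The homeobox list ran from ceh-49 at -0.84 to ceh-43 at 0.77.

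Whole animals hold many tissues and eggs, and less RNA in a cell type cannot be told apart from fewer of those cells. All 30 body wall muscle markers were measured, 24 were above 0 with a median of 0.20, and their summed signal was 18181 with octopamine and 14743 without it. The myosin myo-3 had 0.83 and the troponin mup-2 0.73. All 31 oocyte and eggshell markers were measured, with 8 above 0, a median of -0.12, and summed signals of 76600 with octopamine and 77992 without it. Of 17 genes of sperm formation 3 were above 0 with a median of -0.28, and the kinase spe-6 was lowest at -1.84, with 13.7 treated and 46.1 untreated, while the 23 major sperm protein genes had a median of 0.03. Intestine markers had a median of 0.00, with summed signals of 30193 with octopamine and 30700 without it, pharynx markers 0.04, and hypodermis markers 0.20, which turned below 0 without shared probe sets. The part of these tissue shifts in the gene ratios above was not tested.

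The same exposure in the mutant strains used other arrays. Of the 123 genes past 2-fold upward in N2, 60 were past it in daf-16 (48.8% of the N2 list and 75.9% of the 79 in daf-16, which are 0.771% of all genes) and 54 in ser-3;ser-6 (43.9% and 53.5% of 101, or 0.985% of all genes). Of the 149 downward, 87 were past it in daf-16 (58.4% and 74.4% of 117, or 1.14% of all genes) and 88 in ser-3;ser-6 (59.1% and 39.6% of 222, or 2.17%). The sign matched N2 for 121 of the higher genes in daf-16 and 117 in ser-3;ser-6, and for 146 of the lower genes in daf-16 and 144 in ser-3;ser-6. The higher genes had a median ratio of 1.26 in N2, against 0.97 in daf-16 and 0.95 in ser-3;ser-6, and the lower genes of -1.40 in N2, against -1.1 in daf-16 and -1.18 in ser-3;ser-6. As these genes were picked on the N2 arrays, larger N2 values are partly built in.

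**Figure D5:**
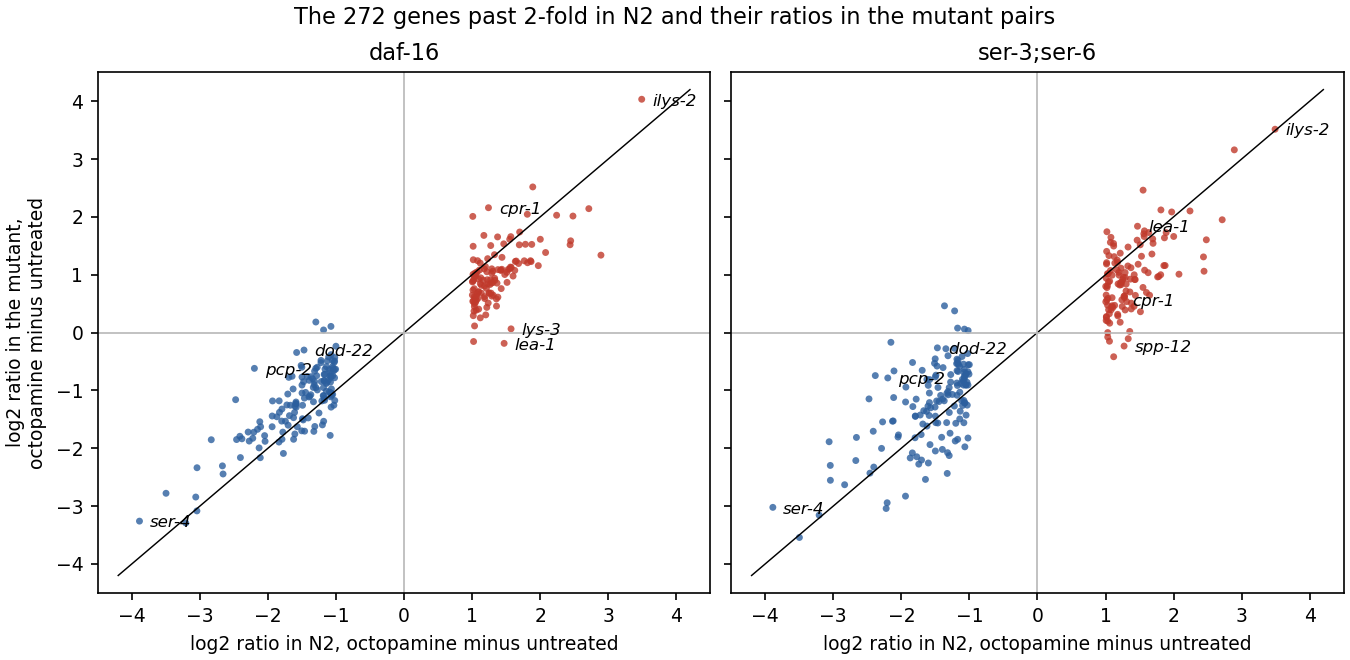
Log2 ratio (octopamine minus untreated) in daf-16 (left) and ser-3;ser-6 (right) against that in N2 for the 272 genes past 2-fold in N2. The diagonal marks equal ratios; among genes higher in N2, 121 of 123 keep their sign in daf-16 and 117 in ser-3;ser-6.

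Past 2-fold in N2 and in neither mutant were 50 of the 123 higher and 43 of the 149 lower genes. Of all genes, 0.771% were past 2-fold upward and 1.14% downward in daf-16, and 0.985% and 2.17% in ser-3;ser-6. The mutant medians of the N2 genes, 0.97 and 0.95 upward and -1.1 and -1.18 downward, lay near the cut-off of 1. These counts therefore do not mark genes particular to N2. Under 50% of the N2 ratio in both mutant pairs was seen for 8 higher and 11 lower genes. Among them dod-22, at 24.3 with octopamine and 63.2 without it in N2, had -1.47, beside -0.30 in daf-16 and -0.26 in ser-3;ser-6. Others were pcp-2, with -2.2 in N2, -0.62 in daf-16 and -0.79 in ser-3;ser-6, and C49G7.12, with 1.38 in N2, 0.61 in daf-16 and 0.51 in ser-3;ser-6. The neuropeptide gene nlp-35 had 1.36 in N2, 0.58 in daf-16 and 0.02 in ser-3;ser-6. The sign was opposite to N2 in at least 1 mutant for 16 genes. Among these spp-12 had 1.27 in N2, 1.5 in daf-16 and -0.23 in ser-3;ser-6, and lipl-2 -1.3, 0.18 and -0.95. The homeobox gene ttx-1 had -1.37 in N2, -0.76 in daf-16 and 0.46 in ser-3;ser-6. Its other probe set, at 18.2 treated and 18.8 untreated, had -0.13 in N2. The brightest probe set of lea-1 had 1.47 in N2, -0.19 in daf-16 and 1.84 in ser-3;ser-6. In daf-16 it read 467 with octopamine and 517 without it. No gene was past 2-fold one way in N2 and the other way in a mutant. Differences between strains were not tested, as each pair has 1 array a side.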

How the data were processed

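Whole-animal RNA was labelled with biotin by a 3' IVT protocol, per the labels, and hybridised to 1 array for each of 6 groups. The deposited table holds an intensity for every probe set on a linear scale. The authors' summarisation, scaling and genome build were not given in the sources used here. Of 22625 probe sets 77 controls were left out. A platform annotation gave 1 gene to 20766 probe sets and several genes to 887, which were not assigned, and 895 stayed unnamed. Entrez identifiers matched 20701 to the RefSeq gene table of WBcel235, used for names and gene order only. Values were converted to log2 with no pseudocount, each array's median was subtracted, the probe set with the highest mean was kept per gene, and genes under the 40th percentile of mean signal were left out. The filter takes the mean of all 6 arrays, so a gene dim in 1 group can pass through the others. Of the genes analysed 3595 rest on shared probe sets.

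With 1 array a group no test was run, and the number of arrays limits the precision. The labels name no separate cultures. Called genes have a ratio of at least 2-fold. The 25 highest and lowest genes and, in each of 91 gene lists, the 3 highest and lowest members were to be named, with all members of lists of up to 12 genes open to naming; other genes were named after their values were seen. The gene set and the lists were chosen with earlier results of these data known, and the membership of 7 lists was corrected after the values were seen. The ratio calculation was tested on simulated data. Calculations used Python 3.11.15, numpy 2.4.6 and pandas 2.3.3, and plots matplotlib 3.10.9.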

Additional observations from a re-analysis of the deposited data

How the results depend on the processing

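Counts of genes past 2-fold were recomputed under 7 alternatives. Without rescaling 164 genes were higher and 121 lower with octopamine, after quantile normalization 139 and 134, without a filter 127 and 159, and with the mean over probe sets 117 and 143, all within 1.5 times the reported counts. Without shared probe sets 90 genes were higher. Adding 16 to each signal before log2 left 73 higher and 87 lower genes, since it shrinks the ratios of dim genes, and the filter at the 60th percentile left 87 higher and 83 lower genes among 6785 analysed. The median of all genes was 0.03 without rescaling and 0.00 under quantile normalization, against -0.06, so a gene group with a median near 0 has no settled direction. The medians of the fbxb, fbxc, CUB-like, class II, body wall muscle and endoplasmic reticulum lists kept their sign under all 7 alternatives. The ratio of lea-1, 1.47 as reported, was -0.17 without shared probe sets, the value of the unshared one with the highest mean log2 signal, while another unshared probe set had 1.37. No paired analysis was possible because the N2 comparison has 1 array a group, and a fit across strains, which would estimate a shared difference, was not run. Leaving out a replicate was likewise not possible. Signal limits what can be seen: 6867 of 17118 genes lay below the filter.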

Other observations

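Probe sets outside the gene comparisons also differed between the N2 arrays. Of 445 probe sets past the filter that the annotation gives to several genes, 7 were at least 2-fold higher with octopamine and 23 at least 2-fold lower. Of 293 unnamed probe sets past the filter, 4 were higher and 6 lower. For comparison, 1.2% of the analysed genes were past 2-fold upward and 1.45% downward. Of these counts, only the 23 lower probe sets of several genes stood well above that background. Genes known only by a sequence name made up 43 of the 123 higher and 67 of the 149 lower genes, and 34.7% of all genes analysed.

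Some families not described above held a far member. Among 35 analysed hedgehog-related and patched-related genes, grd-5 had a ratio of -1.04 and wrt-10 of 0.92. Of 30 transthyretin-related genes 16 were above 0, with ttr-18 at 0.97 and ttr-48 at -0.65. In the V-ATPase and autophagy list the autophagy gene epg-2 was highest at 1.02, the autophagy receptor sqst-1 had 0.73, and atg-4.2 was lowest at -0.71. The peroxisomal ABC transporter pmp-5 had -1.18, at 37.1 with octopamine and 79.3 without it. Of 13 genes of propionate breakdown and vitamin B12 response 3 were above 0, with acdh-1 the lowest.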
